A study of Mus musculus with 36 samples.

Results

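The 10 genes described here make up the route from cytosolic citrate to long-chain unsaturated fatty acids, together with the transcription factors that control it: the synthesis enzymes Acly, Acaca, Acacb and Fasn, the desaturases Scd1 and Scd2, the elongases Elovl5 and Elovl6, and the regulators Srebf1 and Mlxipl. They were chosen by name, and all 10 were found by Ensembl identifier among the 54347 genes of the count table and passed the filter on low counts. They were followed in 36 RNA-seq libraries of primary cells from male C57Bl/6 mice (C57BL/6NHsd for the hepatocytes), in 12 groups of 3 replicates. For adipocytes, stromal vascular cells of inguinal fat pooled from several animals were induced with insulin, dexamethasone, isobutylmethylxanthine and rosiglitazone. Macrophages were grown from bone marrow in L929-conditioned medium, skeletal myotubes were differentiated from muscle cells, and hepatocytes were isolated from liver. Each cell type was exposed for 6 h to PBS (control), 5 mM βOHB, the (R)-enantiomer of β-hydroxybutyrate given as its sodium salt, or 5 mM butyrate, given as sodium butyrate. The 6 h treatment took place in serum-containing DMEM for adipocytes and macrophages, in differentiation medium for myotubes and in Williams E medium for hepatocytes. Adipocytes and macrophages shared this medium but not the culture before it. A difference between cell types therefore cannot be told apart from one between culture media or isolation. The labels do not say whether the 3 replicates of a group came from separate animals or cultures, and the p-values therefore measure the spread between these samples only.

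De novo fatty acid synthesis starts with ATP citrate lyase (Acly), which splits citrate into acetyl-CoA and oxaloacetate. Acetyl-CoA carboxylase then makes malonyl-CoA, with the product of Acaca serving synthesis in the cytosol and that of Acacb sitting at the mitochondrial outer membrane, where malonyl-CoA restrains fatty acid oxidation. Fatty acid synthase (Fasn) assembles palmitate, Elovl6 lengthens it to stearate, the stearoyl-CoA desaturases Scd1 and Scd2 add the first double bond, and Elovl5 lengthens mainly polyunsaturated chains. In liver and fat these genes are classically driven by insulin through SREBP-1c, a product of Srebf1, and by glucose through ChREBP, the product of Mlxipl.

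The libraries held between 18366289 and 23221473 estimated counts. Expression is given as CPM, the count per 1e6 counts of the library after TMM scaling, and fold changes with their standard errors come from edgeR's quasi-likelihood test fitted to 15340 genes, with Benjamini-Hochberg adjustment over all of them. A gene was called when the adjusted p was below 0.05. In the control libraries the 7 adipocyte markers summed to 10380 to 11250 CPM in adipocytes, the 7 macrophage markers to 16990 to 17170 CPM in macrophages, the 7 myotube markers to 22600 to 27760 CPM in myotubes and the 7 hepatocyte markers to 37670 to 39460 CPM in hepatocytes, with all markers of each list detected in every library of its cell type. Fibroblast markers were also present, at 5992 to 6794 CPM in control adipocytes, 1509 to 1652 CPM in macrophages, 1134 to 1428 CPM in myotubes and 20.2 to 24.5 CPM in hepatocytes. Hepatocyte transcripts were present in some myotube libraries and are given beside the myotube results. The third butyrate library of the myotubes stood apart from its replicates. Its counts differed from those of replicates 1 and 2 with a chi-square per gene of 37.2 and 41.9, against 8.6 between replicates 1 and 2 and at most 27.4 in any other group. Its myotube markers summed to 13900 CPM, against 19110 and 18770 CPM in the other butyrate replicates, and its fibroblast markers to 1697 CPM, against 1160 and 1191 CPM. Values of the 10 genes that move by more than 1.5 times without this library are given with and without it.

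Control adipocytes held the highest levels of 8 of the 10 genes. Scd1 was by far the most abundant, at 49300 CPM in adipocytes against 833 CPM in hepatocytes, 198 CPM in myotubes and 41.4 CPM in macrophages (means, n = 3). Fasn stood at 1727 ± 192 CPM (SD, n = 3) in adipocytes, 226 ± 23.3 in hepatocytes, 166 ± 11.3 in myotubes and 162 ± 2.63 in macrophages. Myotubes and macrophages did not differ in Fasn (log2 difference of macrophages minus myotubes -0.03 ± 0.17 SE, adjusted p = 0.875). The exceptions were Elovl5 and Mlxipl, which were highest in hepatocytes.

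The other synthesis enzymes were also highest in adipocytes and next in hepatocytes. Acaca was 721 CPM in adipocytes, 90.9 in hepatocytes, 55.4 in macrophages and 48.7 in myotubes. The difference between macrophages and myotubes missed the threshold (adjusted p = 0.135), but was called without the filter on low counts (0.23 on the log2 scale, adjusted p = 0.0213). Acly differed least between cell types among these enzymes, with 517 (adipocytes), 361 (hepatocytes), 199 (macrophages) and 129 CPM (myotubes). Acacb was close to 0 in macrophages, with 243 CPM in adipocytes, 29.1 in hepatocytes, 8.33 in myotubes and 0.355 in macrophages. Scd2 ran in another order from Scd1, with 1573 CPM in adipocytes, 678 in myotubes, 174 in macrophages and only 52.7 in hepatocytes. The reads of the Scd genes, which are close paralogs, were shared out by the transcript quantifier, so the split between them is uncertain.

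For the elongases, Elovl6 was 80.2 CPM in adipocytes, 65.6 in hepatocytes, 18.6 in myotubes and 14.7 in macrophages. Adipocytes and hepatocytes did not pass the test between them (adjusted p = 0.0639), nor did macrophages and myotubes (adjusted p = 0.0667), while hepatocytes and myotubes did (adjusted p = 4.02e-12). The differences that missed the threshold were called with DESeq2 (adjusted p = 0.0407 and 0.0256) and with its scaling. Without the filter on low counts both were called too (adjusted p = 0.000451 and 0.00671). Adipocytes against hepatocytes was also called with limma-voom (adjusted p = 0.0482) and with library totals (adjusted p = 0.00226). These orders therefore depend on the method. Elovl5 was 122 CPM in hepatocytes, 97.7 in macrophages, 95.8 in adipocytes and 25.5 in myotubes, and adipocytes and macrophages did not differ (log2 difference -0.03 ± 0.07 SE, adjusted p = 0.727). Of the regulators, Srebf1 was 449 CPM in adipocytes, 100.4 in hepatocytes, 72.7 in macrophages and 49.1 in myotubes. Mlxipl was 63.9 CPM in hepatocytes and 48.7 in adipocytes, 0.399 in myotubes and 0.0427 in macrophages, where the 3 control libraries together held 3 counts. The plot of log2 CPM by library shows these levels together with the treated groups.

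**Figure D1:**
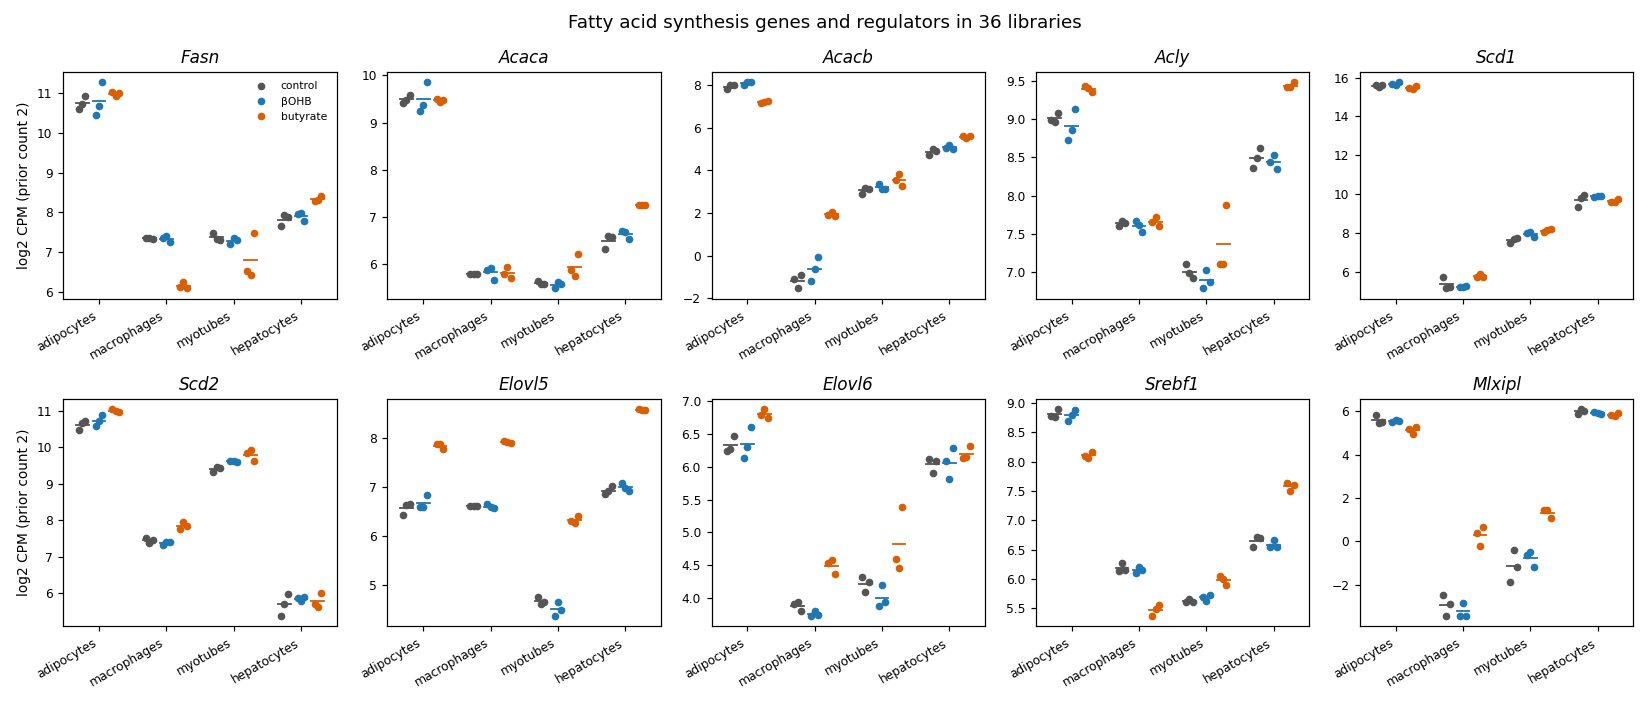
Level of each of the 10 genes in all 36 libraries, on the y axis in log2 CPM (prior count 2) and the 4 cell types on the x axis; points are libraries (grey control, blue βOHB, orange butyrate) and short lines are group means. The βOHB points lie among or near the control points, while the butyrate points of Elovl5 lie above the controls in all 4 cell types and those of Srebf1 lie below them in adipocytes and macrophages and above them in myotubes and hepatocytes.

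Between cell types, the number of the 10 genes called in the control libraries was 9 for adipocytes against macrophages (77.5% of all tested genes were called), 10 for adipocytes against myotubes (78.2%), 9 for adipocytes against hepatocytes (81.1%), 7 for macrophages against myotubes (82.2%), 10 for macrophages against hepatocytes (82.1%) and 10 for myotubes against hepatocytes (86.6%). A call between cell types was thus the rule for any gene. Under scaling by library totals the small differences of adipocytes minus hepatocytes in Elovl5 (-0.35 on the log2 scale) and Mlxipl (-0.39) were -0.11 and -0.15 and were no longer called, that of macrophages minus hepatocytes in Elovl5 was -0.08 (adjusted p = 0.328), and Fasn no longer differed in the test between hepatocytes and macrophages (adjusted p = 0.229) or myotubes (adjusted p = 0.315). The last of these was also not called with DESeq2 (adjusted p = 0.0646), nor without myotube control replicate 2 or 3 or hepatocyte control replicate 2. Per kb of exon, the scale on which different genes can be compared, control adipocytes held 10080 CPM per kb of Scd1, 288 of Scd2, 158 of Fasn, 97.9 of Acly, 79.7 of Srebf1, 42.2 of Acaca, 27.2 of Elovl5, 25.2 of Acacb, 12.5 of Elovl6 and 8.79 of Mlxipl. In control hepatocytes the order began with Scd1 (170 CPM per kb), Acly (68.5), Elovl5 (34.7) and Fasn (20.6), and in control macrophages it began with Acly (37.7), Scd2 (31.9), Elovl5 (27.7) and Fasn (14.8). Scd2 (124) led in myotubes, followed by Scd1 (40.5), Acly (24.3) and Fasn (15.1). These values depend on the length used. Per kb of the longest transcript, control adipocytes held 75.8 CPM per kb of Acaca and 13.4 of Mlxipl. On that scale Srebf1 (23.4) stood above Fasn (22.5) in hepatocytes, and in macrophages Elovl5 (35.1) stood above Scd2 (31.9) and Srebf1 (16.9) above Fasn (16.1).

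Positions are on GRCm38. Fasn lies on the minus strand at chr11:120805846-120824547, Acaca on the plus strand at chr11:84129672-84401651, and Srebf1 and Acly are on the same chromosome. Scd1 and Scd2 lie close together on chromosome 19, with Scd4 between them. RefSeq promoter windows of 300 bases, running from 250 before to 50 after a transcript start, were available for 8 of the 10 genes, as 11 windows (Srebf1 has 3 and Mlxipl 2); Scd1 and Scd2 had none. The 150 bases before the start are shown for the genes on which the butyrate results turn, namely Elovl5, which rose in every cell type, and Fasn, Srebf1, Mlxipl and Acacb, whose direction differed between cell types. They run 5′ to 3′ along the gene's strand, and capitals mark the motifs searched on both strands: the E-box CACGTG, the sterol regulatory element core TCACNCCAC, the CCAAT box CCAAT, the GC box GGGCGG and the TATA box TATAAA. The Srebf1 stretch shown holds none of them, and its window has a CCAAT box further upstream, at bases -166 to -162. The stretches before the other Srebf1 starts, not shown, hold GC boxes. The one before the most downstream start also holds a CCAAT box, at bases -30 to -26.
Elovl5, chr9:77917215-77917364, plus strand: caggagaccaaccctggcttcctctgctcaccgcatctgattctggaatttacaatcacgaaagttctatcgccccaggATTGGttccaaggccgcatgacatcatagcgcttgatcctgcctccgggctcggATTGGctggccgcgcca
Fasn, chr11:120824548-120824697, minus strand: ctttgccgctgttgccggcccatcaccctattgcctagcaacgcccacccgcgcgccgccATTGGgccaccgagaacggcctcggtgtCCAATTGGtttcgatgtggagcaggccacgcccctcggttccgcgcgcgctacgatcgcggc
Srebf1 (most upstream of its 3 listed starts), chr11:60222582-60222731, minus strand: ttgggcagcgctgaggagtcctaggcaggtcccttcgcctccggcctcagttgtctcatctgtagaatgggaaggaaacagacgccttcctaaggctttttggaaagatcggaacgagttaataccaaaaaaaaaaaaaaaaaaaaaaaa
Mlxipl (upstream start), chr5:135089740-135089889, plus strand: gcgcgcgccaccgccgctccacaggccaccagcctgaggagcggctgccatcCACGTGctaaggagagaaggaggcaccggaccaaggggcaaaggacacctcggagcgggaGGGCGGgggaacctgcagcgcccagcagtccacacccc
Mlxipl (downstream start), chr5:135106741-135106890, plus strand: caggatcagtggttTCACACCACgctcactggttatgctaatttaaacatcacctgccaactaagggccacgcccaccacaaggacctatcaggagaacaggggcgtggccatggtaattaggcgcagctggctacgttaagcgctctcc
Acacb, chr5:114165368-114165517, plus strand: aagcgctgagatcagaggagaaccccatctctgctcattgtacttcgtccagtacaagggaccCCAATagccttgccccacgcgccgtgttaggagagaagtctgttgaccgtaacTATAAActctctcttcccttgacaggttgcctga

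In the 11 windows the E-box occurred in 2, against 7.15% of all 32817 promoter windows of the same length. These were the upstream start of Mlxipl, where it is in capitals above, and Elovl5, at bases -161 to -156 and so outside the stretch shown. The sterol element core occurred in 1 window, that of the downstream Mlxipl start, against 1.24% of all windows. A CCAAT box was found in 7 of the 11 windows (37.4% of all), including 3 matches in Fasn, 2 of which overlap. The GC box was found in 4 windows (35.6% of all) and the TATA box in 1, that of Acacb (13.6% of all). These are letter matches and not bound sites. The Acaca and Acacb windows lie at starts inside the annotated gene, which for Acacb is chr5:114146535-114250761. Since the counts are per gene, they do not tell which start of Srebf1, Mlxipl, Acaca or Acacb was used.

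Butyrate changed most of the 10 genes in each cell type, as it did most tested genes, and in different directions. Elovl5 rose in all 4 cell types. Srebf1 and Acacb fell in adipocytes, while in hepatocytes both rose with Fasn, Acaca and Acly. Fasn fell in macrophages, where Mlxipl and Acacb rose from very low levels. In all, 7 genes were called in adipocytes (4 raised and 3 lowered), 8 in macrophages (6 and 2), 10 in myotubes (9 and 1) and 6 in hepatocytes (6 and 0). Of all tested genes 61%, 65%, 66.5% and 63.5% were called in these cell types.

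Butyrate changed the level of a large part of all genes, and these counts have to be read against that. Of all tested genes, 30.7% were raised and 30.3% lowered in adipocytes, 31.9% and 33.2% in macrophages, 33.1% and 33.4% in myotubes, and 31% and 32.4% in hepatocytes. The median absolute log2 fold change of the 10 genes was 0.43 in adipocytes, 0.66 in macrophages, 0.49 in myotubes and 0.61 in hepatocytes, beside 0.42, 0.49, 0.45 and 0.54 over all tested genes. With scaling by library totals in place of TMM, the median of all genes shifted by 0.202 on the log2 scale in macrophages and by 0.133 in myotubes, and the share of calls that were raised went from 49% to 66.7% in macrophages and from 49.8% to 61.8% in myotubes. For the 10 genes the split in macrophages stayed at 6 raised and 2 lowered under that scaling, and in myotubes it was 9 and 0.

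**Figure D2:**
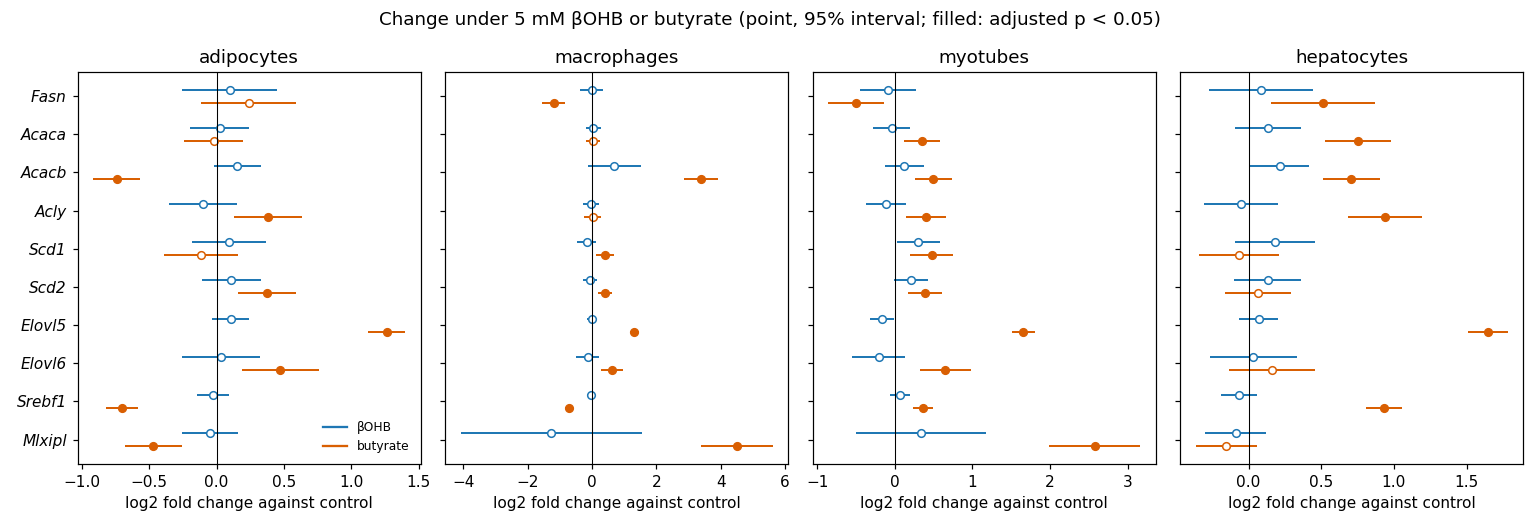
Log2 fold change against control (x axis, own scale in each panel) of the 10 genes (y axis) under βOHB (blue) and butyrate (orange) in the 4 cell types; points are estimates, bars 95% intervals, and filled points have an adjusted p below 0.05. All βOHB points are open, while 7, 8, 10 and 6 butyrate points are filled in adipocytes, macrophages, myotubes and hepatocytes.

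Srebf1 encodes the SREBP-1 proteins, the insulin-responsive activators of lipogenic genes. In adipocytes its control libraries measured 440.5, 433 and 473.5 CPM and the butyrate libraries 274, 266.5 and 286 CPM, a fall by 0.70 ± 0.06 (SE) on the log2 scale (adjusted p = 8.44e-12). In macrophages the values were 69.9, 76.9 and 71.2 CPM in controls and 41.4, 44.7 and 47.0 CPM under butyrate, a fall by 0.71 ± 0.06 (adjusted p = 1.93e-11). In these cells all butyrate libraries lay below all controls. In myotubes Srebf1 rose from 48.5, 50.2 and 48.7 CPM to 66.3, 63.7 and 59.4 CPM (log2 fold change 0.36 ± 0.06, adjusted p = 7.01e-06). In hepatocytes it rose from 93.1, 104.5 and 103.5 CPM to 198, 181 and 195 CPM (0.93 ± 0.06, adjusted p = 2.07e-14). Here all butyrate libraries lay above all controls, and the test that the 4 responses differ gave an adjusted p of 8.08e-17. The βOHB libraries of Srebf1 ranged from 414.5 to 468 CPM in adipocytes, 68.9 to 73.8 in macrophages, 49.4 to 53.1 in myotubes and 92.9 to 101 in hepatocytes, overlapping the controls each time.

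Mlxipl encodes ChREBP, which responds to glucose metabolites. It fell in adipocytes from 56.2, 43.9 and 45.9 CPM to 35.8, 30.8 and 38.7 CPM (by 0.47 ± 0.10 on the log2 scale, adjusted p = 0.000222), with no overlap. In macrophages the 3 control libraries held 0.0848, 0 and 0.0432 CPM and the 3 butyrate libraries 1.22, 0.78 and 1.48 CPM. In counts these were 3 against 83 in all, a ratio of 25.5 with a 95% counting interval of 8.42 to 126 (counting error only), and an adjusted p of 1.64e-08. In myotubes Mlxipl rose from 0.183, 0.661 and 0.352 CPM to 2.60, 2.63 and 2.01 CPM (log2 fold change 2.58 ± 0.29, adjusted p = 4.19e-09). Both rises ended at a level that was still far below that of adipocytes and hepatocytes. In hepatocytes the control values were 59.5, 68.0 and 64.2 CPM and the butyrate values 57.6, 54.9 and 59.9 CPM, which overlapped (-0.15 ± 0.10, adjusted p = 0.197). The responses differed among cell types (adjusted p = 3.67e-11).

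Fasn was called in 3 cell types. In macrophages it fell from 163, 164 and 159 CPM to 69.2, 75.9 and 67.6 CPM, by 1.19 ± 0.18 on the log2 scale (adjusted p = 8.45e-07). In hepatocytes it rose from 200, 244 and 235 CPM to 312, 315 and 341 CPM (0.51 ± 0.17, adjusted p = 0.0112). The groups did not overlap in either cell type. In adipocytes all 3 butyrate libraries (2111, 1951 and 2046 CPM) lay above the controls (1549, 1702 and 1931 CPM), but the change did not pass the test (0.24 ± 0.17, adjusted p = 0.243). In myotubes the controls were 179, 160 and 158 CPM and the butyrate libraries 91.0, 84.8 and 176 CPM. Replicate 3 lay within the control range and the others well below it. The fitted fall of 0.50 ± 0.18 (adjusted p = 0.014) was 0.91 without butyrate replicate 3 (adjusted p = 1.57e-06). It was 0.34 without butyrate replicate 1 (adjusted p = 0.107), 0.31 without butyrate replicate 2 (adjusted p = 0.128) and 0.44 without control replicate 1 (adjusted p = 0.0518), so that no call was made in any of these last 3. In hepatocytes the call was lost without control replicate 1 (0.43, adjusted p = 0.060). The 4 responses of Fasn differed (adjusted p = 1.99e-06).

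Both acetyl-CoA carboxylase genes were raised in hepatocytes and myotubes, and in adipocytes and macrophages Acacb was called and Acaca was not. Acaca rose in hepatocytes, from 80.1, 97.0 and 95.7 CPM to 152, 153.5 and 153 CPM (0.75 ± 0.11, adjusted p = 6.77e-07), and in myotubes, from 49.9, 48.0 and 48.2 CPM to 58.5, 54.1 and 73.9 CPM (0.35 ± 0.11, adjusted p = 0.00764). The rise in myotubes was 0.21 without butyrate replicate 3, the highest library, and was then not called (adjusted p = 0.113). In adipocytes and macrophages the values overlapped, with log2 fold changes of -0.02 (95% interval -0.24 to 0.20) and 0.03 (-0.20 to 0.26). The test of a difference among the 4 responses gave an adjusted p of 0.000185.

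Acacb, the mitochondrial isoform, fell in adipocytes from 225, 251.5 and 252 CPM to 141, 145 and 149 CPM (by 0.74 ± 0.09 on the log2 scale, adjusted p = 7.25e-09). It rose in the other cell types. In macrophages it went from 0.381, 0.252 and 0.432 CPM to 3.69, 4.09 and 3.55 CPM (3.37 ± 0.26, adjusted p = 1.25e-12), which was 24 counts against 274 in all. In myotubes it went from 7.38, 9.03 and 8.58 CPM to 11.5, 14.2 and 9.57 CPM (0.50 ± 0.12, adjusted p = 0.000439), and in hepatocytes from 25.8, 31.7 and 30.0 CPM to 48.2, 46.1 and 48.6 CPM (0.71 ± 0.10, adjusted p = 1.64e-07). None of these groups overlapped, and the responses differed (adjusted p = 7.68e-14). In the macrophages the adipocyte markers Adipoq and Plin1 held 2 and 1 counts in all over the 3 butyrate libraries, and Cidec held none. The whole list of 7 adipocyte markers summed to 189 to 191 CPM in control and 195 to 203 CPM in butyrate-treated macrophages, with 2 markers, Fabp4 (85.6 and 73.8 CPM) and Pnpla2 (104 and 127 CPM), detected in every library. The 7 hepatocyte markers together were at most 0.039 CPM in the butyrate libraries. All 7 myotube markers rose in macrophages under butyrate, with sums of 6.32, 13.7 and 7.66 CPM in controls and 20.1, 23.5 and 60.3 CPM under butyrate. The part of transcripts from other cells in the Acacb and Mlxipl results was not tested.

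Acly, which feeds the pathway with acetyl-CoA, rose in adipocytes from 509, 500.4 and 541.5 CPM to 690.5, 677 and 652.5 CPM (0.38 ± 0.12, adjusted p = 0.00836). In hepatocytes it rose from 329, 361 and 395 CPM to 683, 683 and 716 CPM (0.94 ± 0.12, adjusted p = 9.27e-08), the largest step of Acly. In macrophages the libraries overlapped, with 194 to 203 CPM in controls and 193 to 210 CPM under butyrate (0.02, 95% interval -0.23 to 0.27). In myotubes controls were 138, 127 and 120.5 CPM and butyrate libraries 138, 138 and 234 CPM (0.40 ± 0.13, adjusted p = 0.00586), and without butyrate replicate 3 the fold change was 0.10 (adjusted p = 0.328). Fitted to the myotube libraries alone it was 0.43 and not called either (adjusted p = 0.0636). The responses differed among cell types (adjusted p = 0.000372).

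Of the desaturases, Scd1 was called in 2 cell types and Scd2 in 3. Scd1 in adipocytes was 51130, 46910 and 49850 CPM in controls and 45340, 43150 and 48070 CPM under butyrate (-0.12, 95% interval -0.39 to 0.16), and in hepatocytes it was 643 to 984 CPM in controls and 762 to 862 CPM under butyrate (-0.07, 95% interval -0.34 to 0.21). It rose in myotubes, from 179, 202 and 213 CPM to 259, 278 and 289 CPM (0.48 ± 0.13, adjusted p = 0.00268), and in macrophages, from 52.1, 35.0 and 37.1 CPM to 52.7, 58.4 and 52.7 CPM (0.40 ± 0.14, adjusted p = 0.0126). In macrophages control replicate 1 nearly reached the butyrate libraries. Without it the fold change was 0.60, and leaving out control replicate 2 or 3 ended the call (0.29, adjusted p = 0.0977, and 0.32, adjusted p = 0.0744). Scd1 responses differed among cell types (adjusted p = 0.00854).

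Scd2 rose by similar amounts in adipocytes, macrophages and myotubes, by 0.37 ± 0.11 (adjusted p = 0.00304), 0.40 ± 0.11 (adjusted p = 0.0015) and 0.39 ± 0.11 (adjusted p = 0.00178) on the log2 scale, each time with all butyrate libraries above all controls. The adipocyte libraries went from 1429, 1616 and 1675 CPM to 2091, 2036 and 1984 CPM. In hepatocytes, where its level was lowest, controls of 41.8 to 63.6 CPM and butyrate libraries of 48.8 to 64.2 CPM overlapped (0.06, 95% interval -0.17 to 0.29). A difference among the 4 responses was not detected (adjusted p = 0.135).

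Elovl5 had the smallest adjusted p of the set in all 4 cell types. Controls measured 86.8, 99.4 and 101 CPM in adipocytes and butyrate libraries 234, 237 and 219 CPM, which was 2.4-fold (log2 fold change 1.26 ± 0.07, adjusted p = 4.52e-16). Macrophages went from 97.8, 97.8 and 97.5 CPM to 246.5, 243 and 240.2 CPM, or 2.49-fold (1.32 ± 0.07, adjusted p = 1.02e-16). Myotubes went from 27.0, 24.5 and 25.1 CPM to 79.1, 77.2 and 84.8 CPM, or 3.15-fold (1.65 ± 0.07, adjusted p = 6.43e-18). Hepatocytes went from 117, 120.4 and 129 CPM to 384, 382 and 381.5 CPM, or 3.13-fold (1.65 ± 0.07, adjusted p = 5.28e-19). Every butyrate library was above every control of its cell type, and the sizes of the 4 rises differed (adjusted p = 0.000304). Elovl5 was the only one of the 10 genes raised in all 4 cell types, and none was lowered in all 4, where 12.5% and 12.7% of all tested genes were. By the joint test of a difference among cell types 8 of the 10 genes were called, beside 74.5% of all tested genes. The genes called raised in some cell types and lowered in others were Srebf1, Mlxipl, Fasn and Acacb, or 4 of the 10, against 19.3% of all tested genes.

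Elovl6, the palmitate elongase and a classical SREBP-1 target, rose in adipocytes from 75.4, 77.2 and 88.0 CPM to 110.4, 117 and 106 CPM (0.47 ± 0.14, adjusted p = 0.00436), and in macrophages from 15.0, 15.3 and 13.9 CPM to 23.2, 23.7 and 20.6 CPM (0.62 ± 0.17, adjusted p = 0.00168). Both rises took place in the cells in which Srebf1 fell, and a link between Elovl6 and Srebf1 was not tested. In myotubes, where Srebf1 rose, Elovl6 also rose, from 19.8, 17.0 and 18.9 CPM to 24.2, 22.0 and 41.7 CPM (0.65 ± 0.16, adjusted p = 0.000643). Replicate 3 was again far above the others. Without replicate 3 the fold change was 0.31 and still called (adjusted p = 0.0348). In hepatocytes the butyrate libraries of 69.9, 71.0 and 79.6 CPM lay just above the controls of 69.4, 59.5 and 67.9 CPM and the change was not called (0.16, 95% interval -0.13 to 0.46). A difference among the 4 responses was not detected for Elovl6 (adjusted p = 0.135).

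The treatment also moved the summed markers of the cell types themselves. Under butyrate the adipocyte markers summed to 8099 to 9753 CPM in adipocytes, the macrophage markers to 10420 to 10960 CPM in macrophages and the myotube markers to 13900 to 19110 CPM in myotubes, each below its control range, while the hepatocyte markers summed to 41820 to 43880 CPM in hepatocytes. The higher hepatocyte sum came from albumin (Alb), with means of 28020 CPM in controls and 34310 CPM under butyrate, whereas Apoa1 went from 5581 to 4688 CPM and Serpina1a from 3577 to 2781 CPM. None of these 3 was called. Of the 7 markers Tat alone was called, raised from 126 to 388 CPM, and the median log2 fold change of the list was -0.11. Markers of other cells shifted as well. Endothelial markers ran from 178 to 205.5 CPM in control and from 119 to 136 CPM in butyrate-treated adipocyte cultures, and from 89.8 to 104 CPM and 31.1 to 37.9 CPM in hepatocyte cultures, where all 6 were called lowered. In hepatocyte cultures the macrophage markers summed to 294.5 to 340.6 CPM in controls and 135.5 to 154.8 CPM under butyrate (1 of 7 called lowered) and the Kupffer cell markers to 5.35 to 6.21 and 2.12 to 2.94 CPM. Other lists had higher sums there under butyrate. The adipocyte markers summed to 113 to 128.5 CPM in control and 152.5 to 153.9 CPM in butyrate-treated hepatocytes, with 3 of 7 called raised, namely Cidec (3.20 to 11.6 CPM), Fabp4 (4.66 to 10.6 CPM) and Pnpla2 (114 to 131 CPM), while Adipoq and Plin1 held 1 count each over the 3 butyrate libraries and Lep none. The myotube markers summed to 27.0 to 27.3 CPM in controls and 43.8 to 48.6 CPM under butyrate. Only 1 of these 7 was called raised, and the median log2 fold change of the list was -1.09. The proliferation markers summed to 8.36 to 14.1 CPM and 18.8 to 21.7 CPM (2 of 5 called raised). In adipocyte cultures the macrophage markers summed to 281.6 to 333.5 and 244 to 271.2 CPM (2 of 7 called lowered). Proliferation markers in macrophages ran from 1458 to 1491 CPM in controls and from 601 to 698 CPM under butyrate. In bulk samples, fewer cells of a type and less RNA per cell cannot be told apart, and the part of these shifts in the changes above was not tested.

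In the myotube libraries, transcripts of other cells moved with the treatment. The 7 hepatocyte markers summed to 0, 0.044 and 0.044 CPM in the controls, 0.138, 0 and 24.1 CPM in the βOHB libraries, and 31.5, 564 and 130 CPM in the butyrate libraries, the highest being 1.31% of the level in butyrate-treated hepatocytes. All 7 markers, albumin included, were detected in every butyrate library. Macrophage markers, all 7 detected, ran the other way, at 107 to 273 CPM in controls, 43.1 to 103.5 CPM under βOHB and 16.1 to 68.9 CPM under butyrate. The 5 proliferation markers summed to 35.8 to 77.6 CPM in controls, 22.1 to 27.0 CPM under βOHB and 17.3 to 23.0 CPM under butyrate, where 4 were called lowered. The adipocyte markers summed to 69.0 to 75.5 CPM in controls and 83.2 to 87.5 CPM under butyrate (2 of 7 called raised). Of the 10 genes, Acacb, Scd2 and Mlxipl were highest in butyrate replicate 2, where the hepatocyte markers were highest. Mlxipl was 2.60 CPM in the library with the lowest hepatocyte marker sum and 2.63 CPM in the one with the highest, and the library in which Fasn, Acly, Acaca and Elovl6 stood above the others was replicate 3, with 130 CPM of markers. Without butyrate replicate 2 the other 9 genes were still called in myotubes and Fasn was not. The part of transcripts from other cells in the myotube results was not tested.

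**Figure D3:**
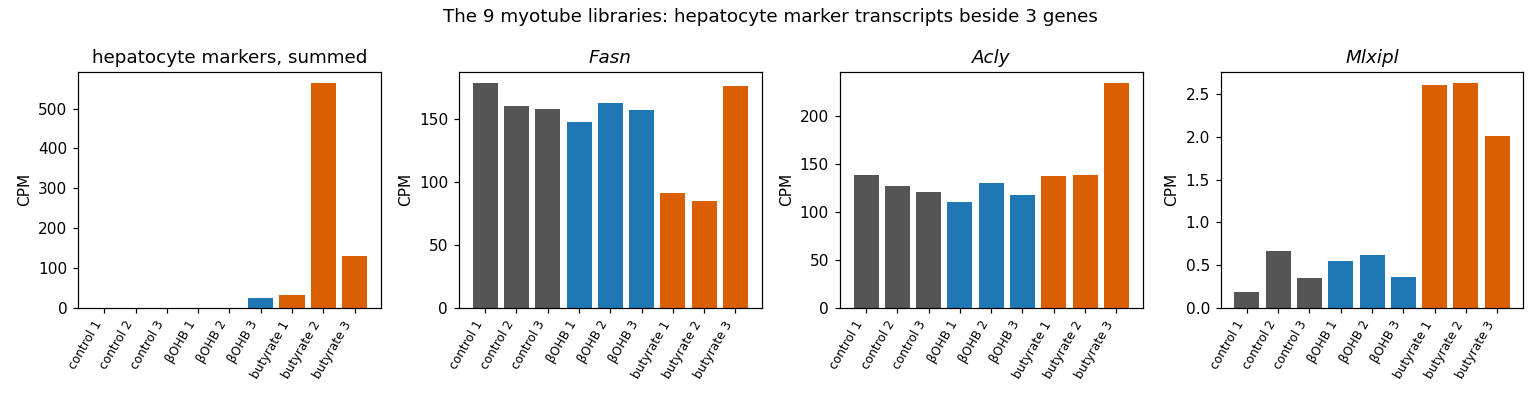
CPM (y axis, from 0) in each of the 9 myotube libraries (x axis, group and replicate) of the summed hepatocyte markers and of Fasn, Acly and Mlxipl. The marker sum is highest in butyrate replicate 2, at 564 CPM, while Fasn and Acly are highest among butyrate libraries in replicate 3 and Mlxipl lies between 2.01 and 2.63 CPM in all 3.

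βOHB differs from butyrate in carrying a hydroxyl group on its β-carbon, and at the same concentration and time none of the 10 genes was called under it. Both compounds were compared with the same control libraries. The count called was 0 of 10 in each cell type with edgeR, with limma-voom and with DESeq2. An unadjusted p under 0.05 was found for 0 genes in adipocytes, 0 in macrophages, 2 in myotubes and 1 in hepatocytes. Calls were also rare among all tested genes, with 0.00652% in adipocytes, 0% in macrophages, 2.91% in myotubes and 0.00652% in hepatocytes. Among all 15340 genes, 1097, 358, 2104 and 845 had an unadjusted p under 0.05 in these cell types.

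The intervals show which changes could have been missed. For Srebf1 the 95% interval of the log2 fold change under βOHB was -0.14 to 0.09 in adipocytes, -0.15 to 0.10 in macrophages, -0.06 to 0.19 in myotubes and -0.19 to 0.06 in hepatocytes. For Elovl5 it was -0.03 to 0.24, -0.14 to 0.13, -0.32 to -0.01 and -0.07 to 0.21. They were wider for Fasn, at -0.26 to 0.45, -0.36 to 0.35, -0.45 to 0.27 and -0.27 to 0.44, and in macrophages they were widest for Acacb (-0.12 to 1.51) and Mlxipl (-4.08 to 1.56), which had few counts. In adipocytes the βOHB libraries spread more than the others for several genes, as in Fasn with 1413, 1645 and 2479 CPM. The 3 values with an unadjusted p under 0.05 were far from a call. Scd1 in myotubes was one, with 250.5, 261 and 221 CPM against controls of 179, 202 and 213 CPM (unadjusted p = 0.0323, adjusted p = 0.30), and Acacb in hepatocytes, with 33.0, 36.4 and 31.9 CPM against 25.8, 31.7 and 30.0 CPM (unadjusted p = 0.0387, adjusted p = 0.88). In both, every βOHB library lay above every control. Elovl5 in myotubes was at 20.8, 25.3 and 22.4 CPM against 27.0, 24.5 and 25.1 CPM (unadjusted p = 0.0426, adjusted p = 0.341), which overlapped. Scd2 in myotubes also had all βOHB libraries, at 791, 784 and 777 CPM, above the controls of 638, 702 and 693 CPM (unadjusted p = 0.0569, adjusted p = 0.386). So did Acacb in adipocytes, with 253 to 280 CPM against 225 to 252 CPM. All βOHB libraries lay below the controls for Elovl6 in macrophages, with 13.2 to 13.8 CPM against 13.9 to 15.3 CPM. None of the 10 genes differed in its βOHB response among cell types by the joint test (0.978% of all genes were called).

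Compared directly butyrate and βOHB differed in 7 genes (adipocytes), 8 (macrophages), 8 (myotubes) and 6 (hepatocytes), with 59.5%, 64.7%, 66% and 63.5% of all tested genes called. This comparison shares its butyrate libraries with the one against control, so its values are given for size only. The fold of butyrate over βOHB was 2.23, 2.50, 3.52 and 2.99 for Elovl5, and the log2 difference was -0.68, -0.69, 0.30 and 1.00 for Srebf1, in the order adipocytes, macrophages, myotubes and hepatocytes. The desaturases gave smaller values. In myotubes Scd1 was 0.17 (95% interval -0.10 to 0.45) and Scd2 0.18 (-0.03 to 0.40), and neither was called. The call depended on the method, since Scd2 passed with DESeq2 (0.24, adjusted p = 0.0298) and without butyrate replicate 3 (0.27, adjusted p = 0.034), and both passed with library totals (adjusted p = 0.0157 for Scd1 and 0.00258 for Scd2). In hepatocytes Scd1 was -0.25 (-0.52 to 0.03), called with limma-voom alone (adjusted p = 0.0461), and Mlxipl -0.06 (-0.27 to 0.14). For Fasn in adipocytes the interval was -0.21 to 0.49, and without βOHB replicate 3, the highest library, the difference was 0.41 and was called (adjusted p = 0.0388). The calls of Fasn in myotubes (-0.41, adjusted p = 0.0415) and hepatocytes (0.43, adjusted p = 0.0333) and of Scd2 in adipocytes (0.26, adjusted p = 0.0333) were each lost without any one of several libraries, and that of Fasn in myotubes also with DESeq2 (adjusted p = 0.105), with its scaling (0.0811), with library totals (0.323) and with the myotube libraries alone (0.199). The calls of Elovl6 in adipocytes, without βOHB replicate 1, and of Acaca and Acacb in myotubes, without butyrate replicate 3 (0.25, adjusted p = 0.0593) and 2 (0.21, adjusted p = 0.107) respectively, were each lost in 1 setting. Without butyrate replicate 3 the differences in myotubes also went from 0.51 to 0.21 for Acly and from 0.86 to 0.52 for Elovl6, both still called, and from -0.41 to -0.83 for Fasn. Without butyrate replicate 1 or 2 the Fasn difference was -0.26 (adjusted p = 0.234) or -0.22 (adjusted p = 0.279).

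Around the 10 genes, 69 further genes of the pathway were arranged in 5 lists, of which 67 could be tested. Under butyrate 23 were raised and 20 lowered in adipocytes, 23 and 25 in macrophages, 27 and 21 in myotubes, and 24 and 28 in hepatocytes. The share called was 64.2%, 71.6%, 71.6% and 77.6%, beside 61%, 65%, 66.5% and 63.5% of all tested genes. In all 4 cell types 6 were raised (8.96%) and 9 were lowered (13.4%), beside 12.5% and 12.7% of all tested genes. The lists were drawn up with earlier results of these data known. In the paragraphs on these lists a gene is given for the cell types in which its change was among the largest, and it may have been called in others too. Under βOHB a single one of them was called in any cell type, the dehydratase gene Hacd4 in myotubes, which fell by 0.74 on the log2 scale, from 5.37 to 3.21 CPM (adjusted p = 0.0227). In the same comparison all 7 macrophage markers were called lowered, as were 3 of 5 proliferation markers, and their part in the Hacd4 result was not tested.

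**Figure D4:**
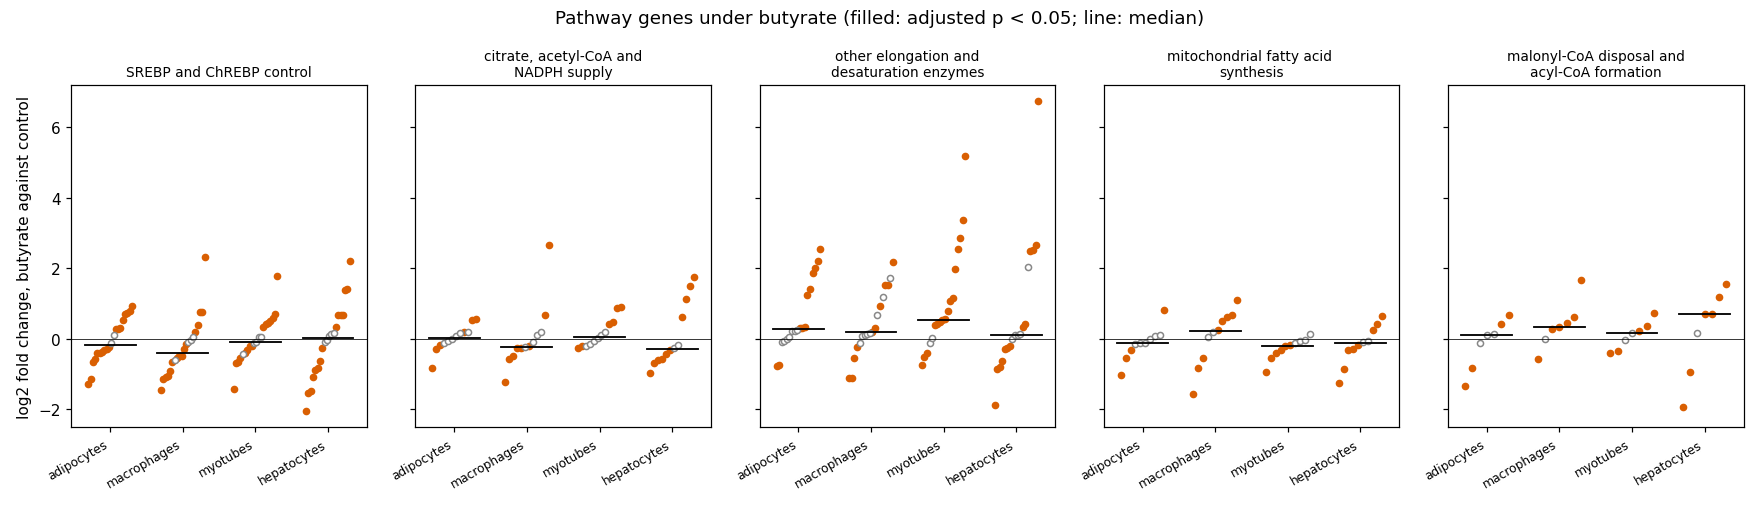
Log2 fold change of butyrate against control (y axis) for each tested gene of the 5 pathway lists (panels) in the 4 cell types (x axis); filled orange points have an adjusted p below 0.05, open grey points do not, and black lines are list medians. Raised and lowered genes occur side by side in every list and cell type except mitochondrial fatty acid synthesis in myotubes, where 0 were raised and 6 lowered, and the list of other elongation and desaturation enzymes reaches the largest rises.

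The genes that control SREBP and ChREBP activity counted 10, 11, 8 and 8 of 20 lowered and 8, 5, 7 and 7 raised in adipocytes, macrophages, myotubes and hepatocytes, with median log2 fold changes of -0.17, -0.39, -0.10 and 0.02. The share called was 90%, 80%, 75% and 75%, beside 61%, 65%, 66.5% and 63.5% of all tested genes, of which between 30.7% and 33.1% were raised and between 30.3% and 33.4% lowered. Usf2, an E-box factor that acts on the Fasn promoter, fell by 1.14, 1.15, 0.70 and 1.48 on the log2 scale. Nr1h3, which encodes the liver X receptor α upstream of Srebf1, fell by 1.27 in adipocytes (45.5 to 18.9 CPM), 1.44 in macrophages (12.0 to 4.44 CPM) and 2.06 in hepatocytes (47.7 to 11.4 CPM). Srebf1 fell in adipocytes and macrophages and rose in myotubes and hepatocytes, and a link between the changes of Nr1h3 and Srebf1 was not tested. Insig1, which retains the SREBP precursor in the endoplasmic reticulum and is itself an SREBP target, rose by 1.42 in hepatocytes (257 to 688 CPM). Insig2 rose by 0.77 in macrophages and 0.71 in myotubes.

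Thrsp, a lipogenic nuclear protein gene under thyroid hormone and ChREBP control, rose by 0.93 in adipocytes (105 to 199 CPM), 1.79 in myotubes (2.24 to 7.74 CPM) and 2.21 in hepatocytes (10.7 to 49.3 CPM). Its relative Mid1ip1, whose product helps acetyl-CoA carboxylase to polymerise, went the other way. It fell in every cell type, by 0.65 in adipocytes, 1.09 in macrophages, 1.41 in myotubes (77.1 to 29.0 CPM) and 1.55 in hepatocytes (50.4 to 17.2 CPM). Prkaa2, a catalytic subunit of AMP-activated protein kinase, which inactivates acetyl-CoA carboxylase, rose by 0.80 in adipocytes and 2.32 in macrophages (1.19 to 5.95 CPM).

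Among the genes that supply acetyl-CoA and NADPH, 3, 2, 4 and 4 of 12 were raised and 3, 6, 2 and 6 lowered. The share called was 50%, 66.7%, 50% and 83.3%, beside 61%, 65%, 66.5% and 63.5% of all tested genes. Acss2, the cytosolic enzyme that makes acetyl-CoA from acetate, rose in every cell type, by 0.55 in adipocytes (124 to 181 CPM), 2.66 in macrophages (3.74 to 23.8 CPM), 0.91 in myotubes (28.6 to 53.7 CPM) and 1.49 in hepatocytes (58.5 to 164 CPM). Pcx, pyruvate carboxylase, rose by 0.68 in macrophages and 0.87 in myotubes. Idh1, a cytosolic source of NADPH, fell by 0.84 in adipocytes (455.5 to 254.7 CPM), 1.22 in macrophages (212 to 91.2 CPM) and 0.97 in hepatocytes (298 to 151.5 CPM). The pentose phosphate genes divided in hepatocytes, where G6pdx rose by 1.76 (38.8 to 132 CPM) and Pgd fell by 0.68. Taldo1 fell by 0.56 in macrophages and Pgls by 0.25 in myotubes. Pdha1, a subunit of pyruvate dehydrogenase, fell by 0.29, 0.25, 0.21 and 0.61 in adipocytes, macrophages, myotubes and hepatocytes. The malic enzyme gene Me2 rose by 0.52 in adipocytes.

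Of the other elongation and desaturation enzymes, 9, 6, 13 and 6 of 18 tested were raised and 2, 4, 3 and 7 lowered. That is 61.1%, 55.6%, 88.9% and 72.2% called, beside 61%, 65%, 66.5% and 63.5% of all tested genes. Elovl4, which builds very long chains, rose by 2.54 in adipocytes (2.83 to 16.4 CPM), 1.53 in macrophages (3.19 to 9.21 CPM) and 2.55 in myotubes (3.65 to 21.4 CPM). In hepatocytes it went from 1 to 158 counts over the 3 libraries, a ratio of 139 with a counting interval of 24.6 to 5537. Elovl1, which lengthens saturated very long chains, fell in every cell type, by 0.75, 1.10, 0.74 and 0.85, and so did the muscle-type dehydratase gene Hacd1, by 0.78, 1.10, 0.51 and 1.87. Fads6 rose by 2.17 in macrophages (1.58 to 7.14 CPM) and Hacd4 by 2.66 in hepatocytes (0.487 to 3.13 CPM).

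Elovl2, which lengthens polyunsaturated chains after Elovl5, rose by 2.21 in adipocytes, on 13 and 59 counts, and by 5.20 in myotubes. The myotube butyrate libraries held 1.22, 6.19 and 1.25 CPM of Elovl2, against at most 0.132 CPM in controls, and butyrate-treated hepatocytes held 477 CPM. The highest value was in replicate 2, which also had the highest hepatocyte marker sum, and the part of those transcripts in the Elovl2 result was not tested. Scd3 rose in myotubes from 1 to 15 counts in all (ratio 14.1, counting interval 2.17 to 593).

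The acyl-CoA synthetases and related genes had 2, 5, 3 and 4 of 7 tested raised and 2, 1, 2 and 2 lowered, or 57.1%, 85.7%, 71.4% and 85.7% called, beside 61%, 65%, 66.5% and 63.5% of all tested genes. Acsl3, an isoform of lipid droplets and the endoplasmic reticulum, rose by 0.67, 0.62, 0.37 and 1.18 in adipocytes, macrophages, myotubes and hepatocytes. Acsl1, the main isoform of fat, liver and muscle, rose by 0.74 in myotubes (74.1 to 123 CPM) and 1.57 in hepatocytes (121 to 359 CPM), and Acsl4 rose in every cell type, by 0.41, 0.28, 0.22 and 0.70. Acsl5, which is targeted by SREBP-1, also moved in every cell type and fell by 0.82 in adipocytes, 0.57 in macrophages, 0.36 in myotubes and 0.94 in hepatocytes (477.5 to 249.6 CPM). Acsbg1 was low and fell by 1.35 in adipocytes and 1.93 in hepatocytes, while Acsl6 rose by 1.66 in macrophages (0.318 to 1.02 CPM) and fell by 0.39 in myotubes.

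The mitochondrial pathway of fatty acid synthesis, which makes the precursor of lipoate, had 1, 5, 0 and 3 of 10 genes raised and 3, 3, 6 and 5 lowered, or 40%, 80%, 60% and 80% called, beside 61%, 65%, 66.5% and 63.5% of all tested genes. Acsf3, the mitochondrial malonyl-CoA synthetase, fell by 0.30 in adipocytes, 1.56 in macrophages (9.72 to 3.29 CPM), 0.55 in myotubes and 0.87 in hepatocytes. Lipt2 fell by 1.03 in adipocytes, 0.93 in myotubes and 1.24 in hepatocytes, whereas the other lipoyl transferase gene, Lipt1, rose by 0.82 in adipocytes, 0.67 in macrophages and 0.63 in hepatocytes. Of the reductase subunits, Cbr4 fell by 0.53, 0.83, 0.41 and 0.29 in the 4 cell types, and Hsd17b8 rose by 1.10 in macrophages and 0.41 in hepatocytes.

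Across the 12 group means of log2 CPM, the pair of the 10 genes with the highest correlation was Fasn and Acaca (r = 0.971), followed by Elovl6 and Mlxipl (0.968) and Acaca and Srebf1 (0.967). Scd2 and Elovl5 gave the lowest (-0.356). The 12 means come from 4 cell types and share the libraries of each group, so these values mostly describe differences between cell types. Of all tested genes, those most like Fasn were Foxred1 (r = 0.981), A2m (0.978) and Nts (0.976). For Scd1 they were Esr1 (0.990), Pcsk5 (0.989) and Gm5182 (0.986), for Srebf1 Sdcbp2 (0.976), Cidec (0.974) and Mmd2 (0.971), and for Mlxipl Sox5 (0.987), Klf15 (0.986) and Pex11a (0.985).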

How the data were processed

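The authors prepared 36 RNA-seq libraries (4 primary mouse cell types, 3 treatments, 3 replicates), quantified transcripts with Salmon 1.2.1 against GRCm38.p6 and deposited one table of estimated counts per gene, summed from transcripts with tximport. Their methods describe scaling to transcript length and library size. Of the deposited values above 0, 55.6% are exactly whole (tolerance 0), and whether the scaling was applied to this table was not settled here. It would alter CPM and CPM per kb. These expected counts need not be whole, and a read that fits several paralogs is shared between them. They were rounded here. Gene names and exon lengths came from GENCODE M21, which holds 54094 of the 54347 identifiers. Genes with CPM above 1 in at least 6 libraries (15340) were fitted with edgeR 4.0.16 (R 4.3.3; TMM, quasi-likelihood test, a mean for each of 12 groups, 24 residual degrees of freedom). P-values were adjusted by the Benjamini-Hochberg method over all tested genes. Log2 CPM used a prior count of 2. Alternatives were limma-voom (limma 3.58.1), DESeq2 1.42.0, other scalings and filters, and leaving out each library. Libraries held 18366289 to 23221473 counts, so genes under about 1 CPM rest on few counts. The main fit did not pair same-numbered replicates, and the labels do not say whether they belong together. In macrophages and hepatocytes 0 of 9 same-numbered pairs, and in adipocytes and myotubes 2 of 9, had deviations correlated above 0.1. The highest r was 0.225 in adipocytes and 0.273 in myotubes. Differently numbered pairs reached 0.234 and 0.355 there, so these values do not settle whether the samples were paired.

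The 10 genes, the lists and the tests were chosen with earlier results of these data known. From each pathway list, the text names up to 2 raised and 2 lowered genes per treatment and cell type with the largest fold change among those called without overlap, and for some of these genes the text adds the value in a cell type where the rule did not name them. Gene-level tests were checked on simulated counts. Hsd17b8 was found under its synonym H2-Ke6. Promoters are RefSeq windows on GRCm38.p6. Proteins were not analysed here.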

Additional observations from a re-analysis of the deposited data

Results flagged for a closer look

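For 8 of the 10 genes the response to butyrate differed among the 4 cell types by edgeR's joint test, which was the reason to list them. The adjusted p was 8.08e-17 for Srebf1, 7.68e-14 for Acacb, 3.67e-11 for Mlxipl, 1.99e-06 for Fasn, 0.000185 for Acaca, 0.000304 for Elovl5, 0.000372 for Acly and 0.00854 for Scd1. Of all tested genes 74.5% were called in the same test. Srebf1, Acacb, Mlxipl and Fasn were called in opposite directions in different cell types, while Elovl5 rose in all 4 and differed in size.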

How the results depend on the processing

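With unadjusted p below 0.001, the threshold of the study, 4, 7, 6 and 5 genes were called under butyrate in adipocytes, macrophages, myotubes and hepatocytes. In the same order 45.6%, 49.7%, 49.9% and 49.3% of all tested genes were called. Between butyrate and βOHB the counts were 5, 8, 5 and 5, beside 44.5%, 49.4%, 48.95% and 49.2% of all tested genes. Leaving out single libraries gave 7 in adipocytes, 7 to 8 in macrophages, 8 to 10 in myotubes and 5 to 6 in hepatocytes for butyrate against control, and 0 throughout for βOHB. For butyrate minus βOHB the ranges were 5 to 8, 8, 6 to 8 and 5 to 6. Of 560 member values of butyrate against control under all alternatives, 549 stayed on the same side of the threshold, 11 lost their call and none of the called values changed sign. All 560 values for βOHB stayed uncalled. With the replicate block, 7, 8, 10 and 6 genes were called under butyrate, as without it, and the count was equal for 19 of 20 comparisons. The exception was Fasn between macrophages and hepatocytes, which lost its call (-0.42, adjusted p = 0.0694). Whether the replicate numbers pair the samples is not known. Of these 11, Fasn in myotubes accounted for 5, and it was not called there with library totals (-0.36, adjusted p = 0.0812) or with the myotube libraries alone (-0.48, adjusted p = 0.0939). The causes were not tested.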
